A study of Homo sapiens with 4 samples.

Results

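The genes described here encode the matrix metalloproteinases (MMP), the membrane-bound ADAM proteases, the secreted ADAMTS proteases and the tissue inhibitors of metalloproteinases (TIMP). They were taken from a table of raw counts made from the human breast cancer cell line MDA-MB-453. Members were the protein-coding rows whose symbol is MMP, ADAM or ADAMTS followed by a number, or TIMP1 to TIMP4. This gave 65 of the 48162 rows in the table, namely 21 MMP, 20 ADAM, 19 ADAMTS and 4 TIMP genes and MMP24OS. The rule takes in MMP24OS by its name alone, as it is an opposite-strand neighbour of MMP24 and not a protease gene, so counts below are over the other 64. MMP12 and MMP28 were not analysed here.

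These proteases share a catalytic zinc ion. MMPs cut collagens, laminins and other matrix proteins, and are made as inactive precursors; ADAMs release growth factors and receptors from the cell surface; ADAMTS enzymes trim procollagens, proteoglycans and glycoproteins in the matrix. TIMPs bind the active site and block it, and TIMP3 also inhibits ADAM17 and several ADAMTS enzymes. In breast tumours much of the MMP supply is known to come from stromal cells, and tumour cells that carry MMP14 at their surface can degrade collagen around them.

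Wild-type cells (WT) and cells with reduced TMEM9 (TMEM9 KD) were compared, with 2 libraries each. No other allele or agent is labelled in either group. How TMEM9 was reduced is not stated in the labels, and neither is whether replicate libraries stand for separate cultures, so p-values measure only the spread between libraries, which may be technical. Library totals ran from 15323843 to 18517337 counts. TMEM9 itself was at 74.9 and 83.3 CPM in the WT libraries and at 3.11 and 4.47 CPM in the TMEM9 KD libraries (log2 fold change -4.37, SE 0.126, edgeR adjusted p = 4.12e-52). Luminal keratin KRT8 (282.4 ± 13.1 CPM in WT), XBP1 and ERBB2 were present, but 7 of the 15 luminal and apocrine markers had at most 9 counts in any library, namely SPDEF, KRT19, TFAP2B, PIP, AZGP1, EPCAM and CDH1, with PIP at 0 throughout. The mesenchymal genes VIM (1349.5 ± 9.49 CPM in WT), COL1A1 and PDGFRA were at high levels in both groups. Other mesenchymal and fibroblast markers were mixed. COL3A1 was at 956.7 ± 13.3 CPM in WT and 31.1 ± 4.78 CPM in TMEM9 KD. COL1A2, LUM, POSTN and DCN had group means of at most 3.08 CPM.

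CPM here is the count per unit of TMM-scaled library size (edgeR's CPM), given per library or as the mean and SD of the 2 libraries of a group. RPKM means this value per kilobase of exon and is used wherever levels of different genes are set side by side. A negative log2 fold change means a lower level in TMEM9 KD. A gene was called when its adjusted p from edgeR's quasi-likelihood test over all 14923 genes tested was below 0.05. In bulk libraries fewer cells of a type and less RNA per cell cannot be told apart.

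Of the 64 members, 39 had enough counts to be tested, and 8 of these were higher and 17 lower in TMEM9 KD. Among all genes tested, 57.7% were called, 28.7% higher and 29.0% lower. The members tested had a median log2 fold change of -0.38, against 0.01 for all genes tested. A change of at least 2-fold was called upward for 4 members and downward for 9, where 7.24% and 10.1% of all genes did so. WT and TMEM9 KD libraries lay fully apart in 33 of the 39 members and in 77.6% of all genes. The 25 remaining members were not tested because they did not pass the count filter, most of them with counts near 0. These counts and medians describe the members that passed the filter only.

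By subfamily, 1 of 12 MMP genes tested rose and 5 fell, 1 of 11 ADAM genes rose and 6 fell, and 6 of 13 ADAMTS genes rose and 3 fell. All 3 TIMP genes tested fell. These counts stand beside 28.7% higher and 29.0% lower among all genes tested. Median log2 fold changes were -0.49 for MMP, -0.35 for ADAM, 0.50 for ADAMTS and -1.0 for TIMP genes. Whether the subfamilies differ from each other was not tested. MMP14 had the most negative log2 fold change among the members tested, as the plot of fold changes by subfamily shows.

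**Figure D1:**
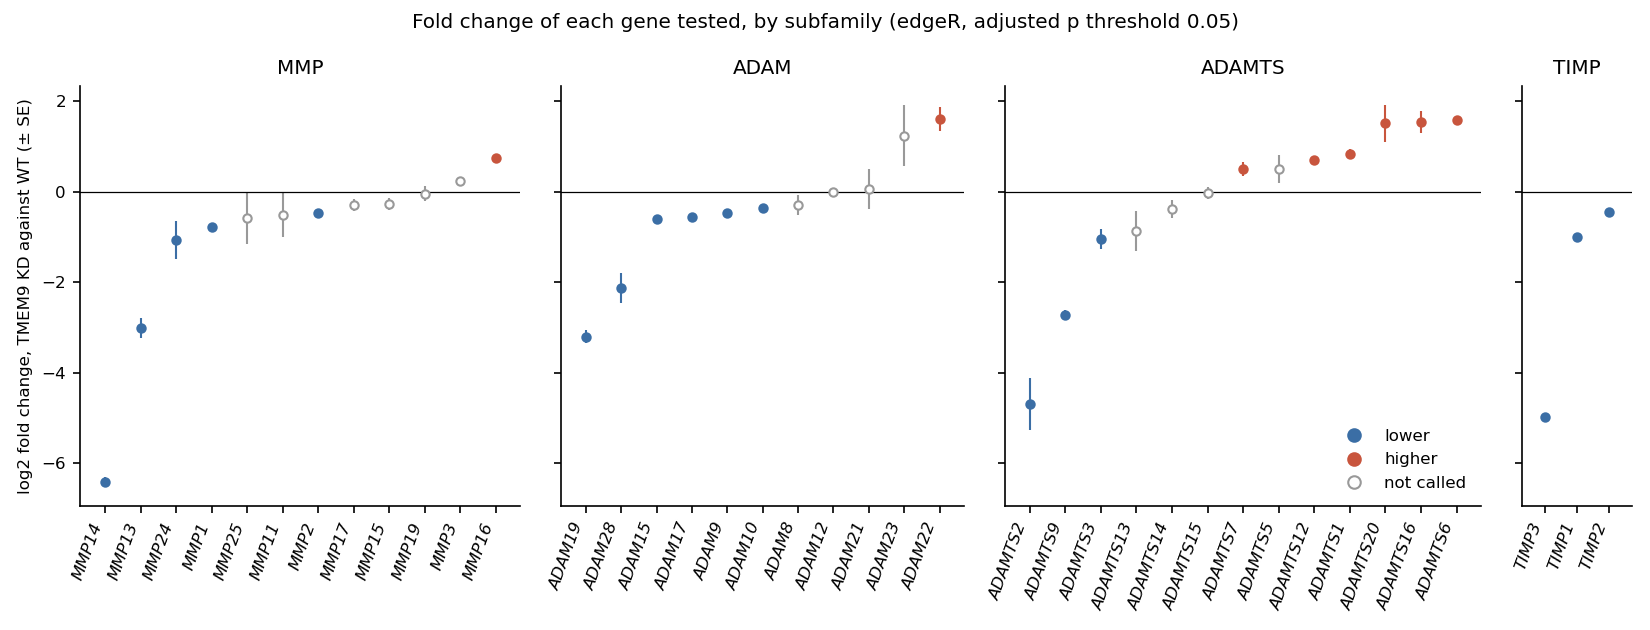
Log2 fold change (vertical axis, TMEM9 KD against WT) with its SE for each of the 39 members tested, in a panel for each subfamily; blue points were called lower, red points higher and open grey points were not called. MMP14, TIMP3 and ADAMTS2 lie lowest, at -6.41, -4.98 and -4.69, and 6 of the 8 red points are ADAMTS genes.

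The stretches upstream of the members that moved most are shown so that the DNA just before the starts of the most changed genes can be read beside their values. RefSeq windows (build GRCh38.p14) were found for 39 of the 64 members. Those of the 2 called members with the largest fall and the 2 with the largest rise are printed as the 150 bases before the start, 5′ to 3′ on the gene's own strand, with capitals marking a GC box (GGGCGG, or CCGCCC when read on the other strand).
MMP14 (chr14:22836435-22836584, plus strand): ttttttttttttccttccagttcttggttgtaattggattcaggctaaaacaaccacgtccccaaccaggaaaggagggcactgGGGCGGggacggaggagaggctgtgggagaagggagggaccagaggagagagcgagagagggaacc
TIMP3 (chr22:32801555-32801704, plus strand): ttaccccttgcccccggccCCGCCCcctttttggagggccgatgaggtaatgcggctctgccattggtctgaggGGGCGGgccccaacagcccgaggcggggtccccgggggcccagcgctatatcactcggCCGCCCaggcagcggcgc
ADAM22 (chr7:87934101-87934250, plus strand): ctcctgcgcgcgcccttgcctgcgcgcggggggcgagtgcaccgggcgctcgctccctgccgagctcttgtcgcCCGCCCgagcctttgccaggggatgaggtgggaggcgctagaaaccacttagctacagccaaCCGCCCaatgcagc
ADAMTS6 (chr5:65481921-65482070, minus strand): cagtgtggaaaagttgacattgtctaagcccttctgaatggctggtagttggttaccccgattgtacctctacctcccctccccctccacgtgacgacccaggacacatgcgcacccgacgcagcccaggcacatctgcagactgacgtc

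Over the 250 bases before the start, an AP-1 motif (TGANTCA) was in 4 of the 39 members' windows and in 6.57% of the 35116 RefSeq windows. A GC box (GGGCGG, both strands) was in 26 of the 39 and in 42.6% of all windows, and a TATA box (TATAAA, both strands) in 7 of the 39 and in 10.7% of all. Motif matches were counted on either strand, and none of the 3 motifs contains another. Of 10 called members that were lower and had a window, 9 held a GC box, and of 5 that were higher 4 did. No window was found for the called members MMP1, MMP2, MMP13, ADAM9, ADAM28, ADAMTS9 and TIMP2 (lower) and MMP16, ADAMTS1 and ADAMTS16 (higher). Members were counted by gene, with a match in any of their windows, while the shares of all are over windows. Of the members with an AP-1 motif, MMP7, MMP10 and MMP20 were not tested and ADAMTS12 was called higher. The 150 bases shown held 3 GC boxes upstream of TIMP3, 2 upstream of ADAM22 and 1 upstream of MMP14, while ADAMTS6 held none of the 3 motifs. The stretches had a GC content of 54.0% for MMP14, 72.7% for TIMP3, 70.7% for ADAM22 and 57.3% for ADAMTS6. Members that fell and members that rose thus both included GC-box windows, and these letters are a description, not sites of binding.

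Collagenases cut the triple helix of fibrillar collagen. MMP1 (ENSG00000196611), the interstitial collagenase, was at 147.1 and 153.1 CPM in WT and at 91.3 and 85.4 CPM in TMEM9 KD. It fell in both knockdown libraries, which lay apart from the WT libraries (log2 fold change -0.77, SE 0.0683, adjusted p = 1e-17). MMP13 (ENSG00000137745), a collagenase that prefers type II collagen, was at 12.6 and 13 CPM in WT and at 1.53 and 1.6 CPM in TMEM9 KD. This was an 8.12-fold fall (log2 fold change -3.02, SE 0.221, adjusted p = 1.62e-22), on 25 and 28 counts in TMEM9 KD. The third collagenase, the neutrophil enzyme MMP8, had 1 count over the 4 libraries.

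Gelatinases digest denatured collagen and basement membrane type IV collagen. MMP2 (ENSG00000087245) was the member of the MMP subfamily with the highest RPKM in both groups. It was at 637.3 and 631.5 CPM in WT and at 440.9 and 480.2 CPM in TMEM9 KD, so that the knockdown libraries were lower but spread further apart than the WT libraries. The fall was 1.38-fold (log2 fold change -0.46, SE 0.0539, adjusted p = 2.12e-12) and did not pass the test against a change of 1.5-fold (adjusted p = 1). MMP9, the other gelatinase, had 1 count in each WT library and 0 in TMEM9 KD.

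Stromelysins act on proteoglycans, fibronectin and other proMMPs. MMP3 was at 23.5 and 26.3 CPM in WT and at 30 and 28.6 CPM in TMEM9 KD. The groups did not overlap, but the difference was not called (log2 fold change 0.23, SE 0.107, adjusted p = 0.0553). It was called when libraries were scaled by their totals only (0.31, adjusted p = 0.0102). MMP11 was near 1 CPM in WT (1.05 ± 0.251) with overlapping groups and was not called (log2 fold change -0.51, SE 0.495). MMP10 had 3 and 4 counts in WT and 9 and 7 in TMEM9 KD, too few to be tested.

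Membrane-type MMPs are anchored at the cell surface, by a transmembrane segment in MMP14, MMP15, MMP16 and MMP24 and by a lipid anchor in MMP17 and MMP25. MMP14 (ENSG00000157227), the activator of proMMP2, was at 209.9 and 213.0 CPM in WT and at 2.38 and 2.58 CPM in TMEM9 KD. Behind these levels stood 3139 and 3829 counts in WT and 39 and 45 in the knockdown. Its fall was 84.9-fold (log2 fold change -6.41, SE 0.111, adjusted p = 1.49e-70). MMP16 (ENSG00000156103), which can also activate proMMP2, was the single MMP gene called higher. It was at 32.7 and 31.4 CPM in WT and at 54.1 and 53 CPM in TMEM9 KD (log2 fold change 0.74, SE 0.0906, adjusted p = 1.37e-11). In RPKM, MMP14 went from 47.4 ± 0.486 to 0.556 ± 0.0311 and MMP16 from 2.65 ± 0.0744 to 4.42 ± 0.0619. The order of the 2 genes was thus the other way round in TMEM9 KD, with no overlap between libraries.

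MMP15 (14.7 ± 0.492 CPM in WT, 12.2 ± 0.704 CPM in TMEM9 KD) and MMP17 (16.5 ± 1.07 and 13.5 ± 1.31 CPM) did not pass the threshold, with log2 fold changes of -0.27 (SE 0.141) and -0.30 (SE 0.136). MMP17 was at an adjusted p of 0.0516 and passed without TMEM9_KD replicate 2 (adjusted p = 0.0165). MMP24 was called lower (log2 fold change -1.06, SE 0.424, adjusted p = 0.0271), with 1.92 ± 0.121 CPM in WT and 0.924 ± 0.334 CPM in the knockdown. Its libraries held 30, 33, 19 and 12 counts, and the call ended with DESeq2 (adjusted p = 0.127), without WT replicate 1 (0.142), without WT replicate 2 (0.0983) and without TMEM9_KD replicate 2 (0.227). MMP24OS lies on the opposite strand and shares 799 exon bases with MMP24, or 18.1% of the MMP24 exons, and the strand setting of the counts is not given. MMP24OS was at 24.7 ± 1.96 CPM in WT and 26.3 ± 2.36 CPM in TMEM9 KD and was not called. MMP25 was under 1 CPM in every library and was not called (log2 fold change -0.59, SE 0.571), and its exons overlap MMP25-AS1 on the opposite strand by 35.2% of their length. MMP19, a soluble MMP outside these classes, had overlapping groups (8.83 ± 1.79 and 8.56 ± 0.68 CPM; log2 fold change -0.04, SE 0.172).

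**Figure D2:**
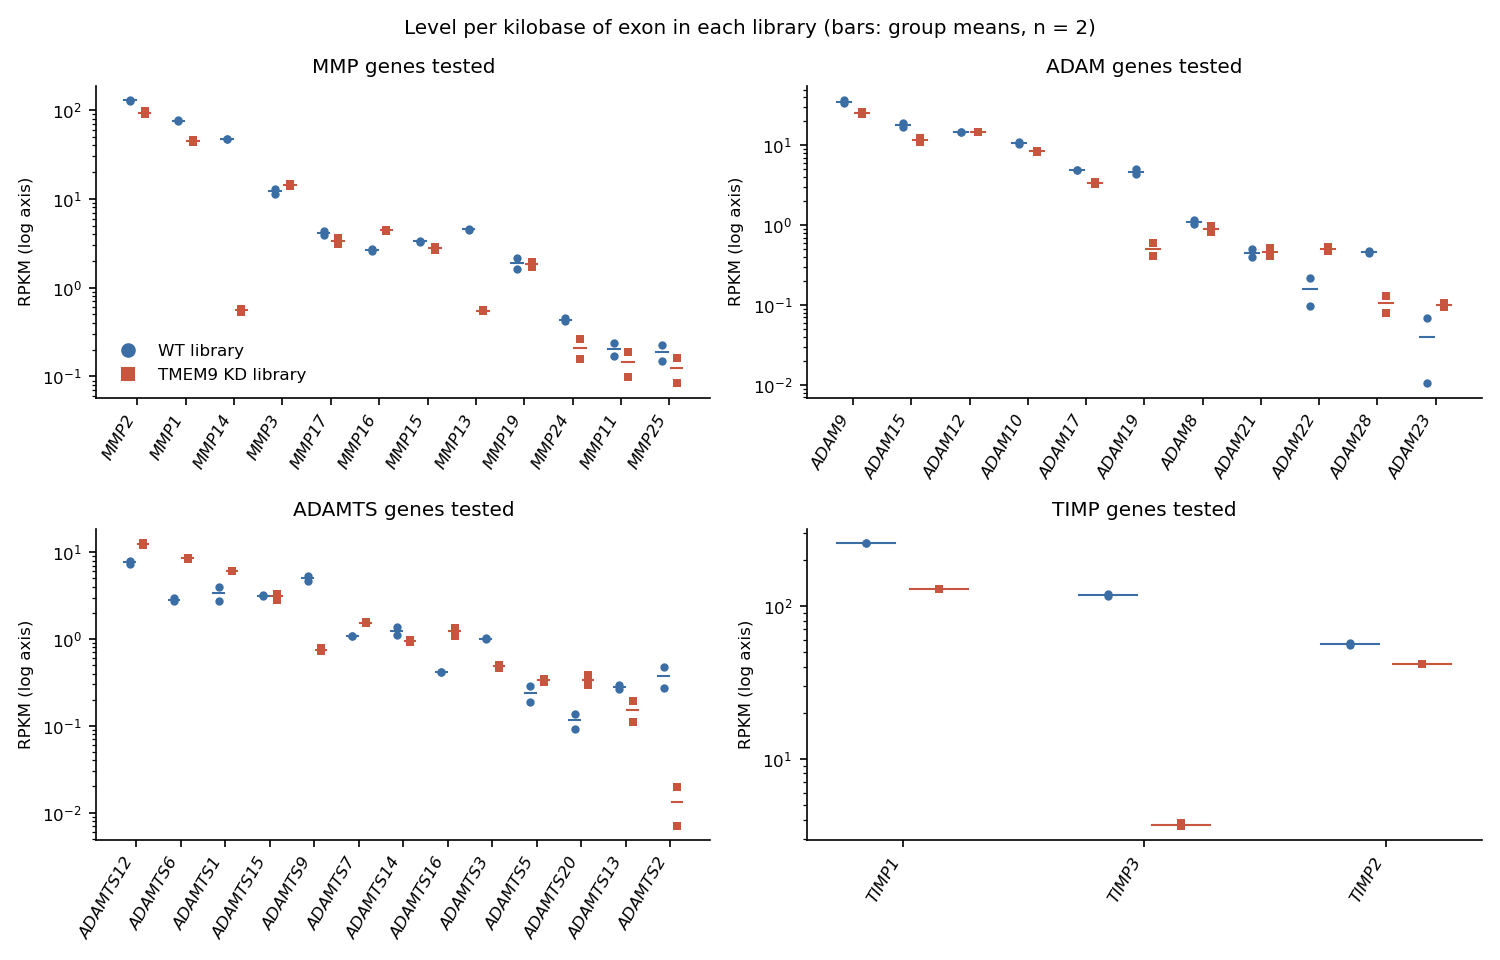
RPKM on a log axis of each member tested in the 2 WT libraries (blue circles) and the 2 TMEM9 KD libraries (red squares), in a panel for each subfamily and ordered by mean RPKM, with bars at the group means. MMP14, MMP13, ADAM19, ADAMTS9 and TIMP3 show the widest gaps among members above 4 RPKM in WT.

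Summed over the subfamily, MMP genes held 280.0 and 283.7 RPKM in the WT libraries and 164.6 and 169.0 RPKM in the TMEM9 KD libraries. MMP2 took 45.6% ± 0.713 of this sum in WT and 56% ± 2.32 in TMEM9 KD. MMP1 took 27% ± 0.511 and 26.9% ± 1.76, with overlapping groups. The share of MMP14 went from 16.8% ± 0.0183 to 0.333% ± 0.0124. Membrane-type MMPs together went from 58.1 ± 0.485 to 11.4 ± 0.325 RPKM. Nearly all of this difference was MMP14, which alone went from 47.4 ± 0.486 to 0.556 ± 0.0311 RPKM. Collagenases went from 80.7 ± 2.25 to 45.4 ± 2.07 RPKM, while stromelysins were at 12.5 ± 1.04 and 14.7 ± 0.587 RPKM. These sums are given with no test, since the smallest exact two-sided permutation p of 2 libraries against 2 is 0.333.

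Summed per length, TIMP genes stood above each of the other subfamilies in both groups. TIMP1 (ENSG00000102265), a secreted inhibitor of most soluble MMPs, was at 395.1 and 397.7 CPM in WT and at 198.9 and 198.6 CPM in TMEM9 KD. It fell 1.99-fold (log2 fold change -1.0, SE 0.0577, adjusted p = 6.02e-29). TIMP2 (ENSG00000035862), which at the cell surface also links MMP14 to proMMP2, was at 312.3 and 320.8 CPM in WT and at 235.0 and 232.5 CPM in TMEM9 KD. Its fall was 1.35-fold (log2 fold change -0.44, SE 0.0578, adjusted p = 2.11e-10) and did not pass the test against 1.5-fold (adjusted p = 1).

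TIMP3 (ENSG00000100234), the inhibitor that stays bound to the matrix, was at 528.8 and 547.1 CPM in WT and at 17.4 and 16.7 CPM in TMEM9 KD. Counts were 7906 and 9835 in the WT libraries and 285 and 292 in the knockdown libraries. The fall was 31.5-fold (log2 fold change -4.98, SE 0.0752, adjusted p = 1.08e-75). TIMP3 lies within SYN3 and TIMP1 within SYN1, each on the opposite strand with 0 shared exon bases. SYN3 had at most 3 counts and SYN1 at most 8 in any library. TIMP4 had 0 counts in all 4 libraries, where a count of 0 allows up to 0.201 CPM in the shallowest library.

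Together the TIMP genes held 426.7 and 433.9 RPKM in WT and 174.6 and 173.8 RPKM in TMEM9 KD. TIMP3 made up 27.2% ± 0.334 of this in WT and 2.13% ± 0.0531 in TMEM9 KD, and TIMP1 59.8% ± 0.426 and 74% ± 0.156. The summed MMP level over the summed TIMP level was 0.656 and 0.654 in the WT libraries and 0.943 and 0.973 in the TMEM9 KD libraries. Both sums were lower in TMEM9 KD, the TIMP sum by the larger factor. The plot of summed levels shows the make-up of each subfamily in every library.

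**Figure D3:**
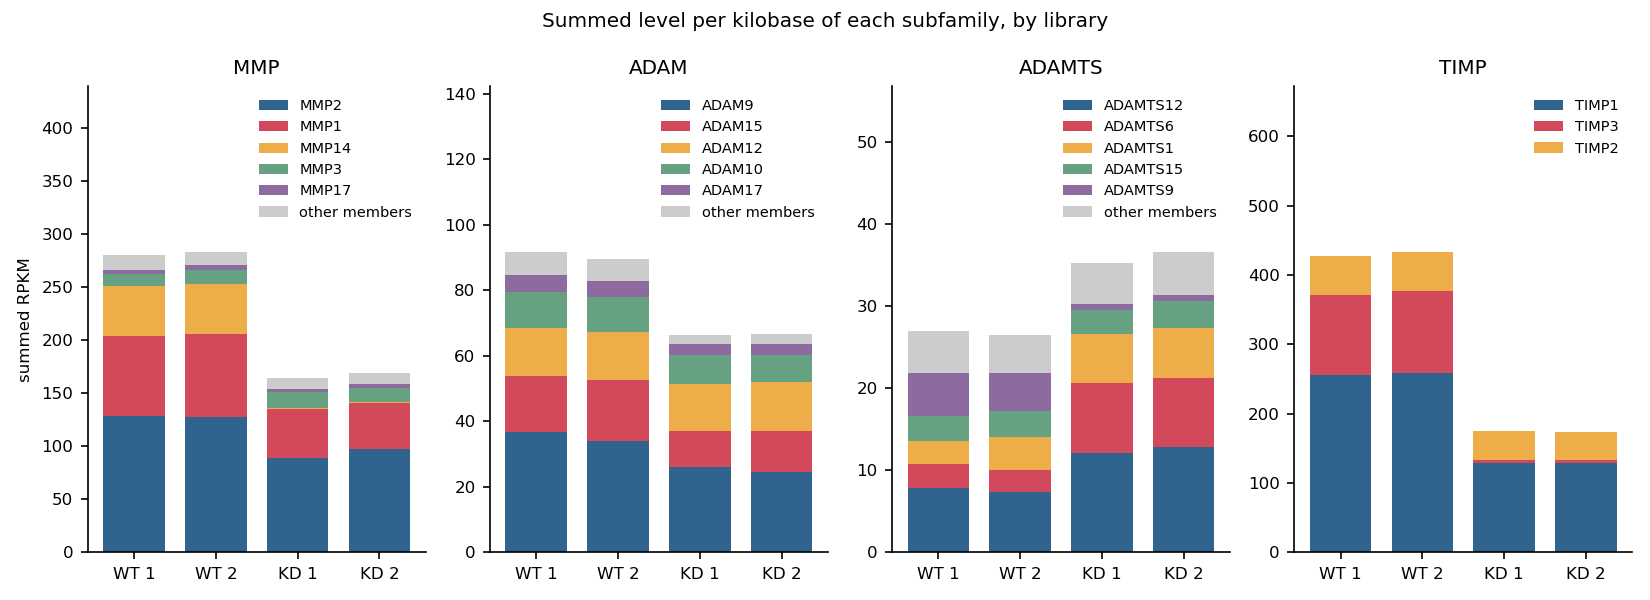
Stacked bars of summed RPKM (vertical axis, from 0) for each subfamily in each library, split into the 5 members with the highest mean and the other members, with no bar part for TIMP4, which was at 0. MMP14 and TIMP3 fill a visible part of the WT bars and almost none of the TMEM9 KD bars, while the ADAMTS bars are higher in TMEM9 KD.

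Among ADAM genes, 12 encode proteins with a working active site, of which 9 were tested, 6 fell and 0 rose. Of all genes tested, 29.0% fell and 28.7% rose. ADAM9 (ENSG00000168615), a widely expressed sheddase, had the highest RPKM of the subfamily. It was at 254.4 and 235.1 CPM in WT and at 179.6 and 170.6 CPM in TMEM9 KD (log2 fold change -0.48, SE 0.0612, adjusted p = 4.89e-11). ADAM10 (ENSG00000137845), the main sheddase of Notch receptors and N-cadherin, was at 177.6 and 170.2 CPM in WT and at 138.8 and 134.6 CPM in TMEM9 KD (log2 fold change -0.35, SE 0.064, adjusted p = 1.94e-06). ADAM17 (ENSG00000151694), which releases TNF and several EGF receptor ligands, was at 53.1 and 52.8 CPM in WT and at 37.4 and 35.2 CPM in TMEM9 KD (log2 fold change -0.55, SE 0.089, adjusted p = 1.01e-07). ADAM15 (ENSG00000143537), which carries an integrin-binding motif, was at 111.0 and 123.7 CPM in WT and at 72.1 and 81.9 CPM in TMEM9 KD (log2 fold change -0.61, SE 0.073, adjusted p = 6.1e-12). ADAM17 shares 12.3% of its exon bases with IAH1 on the opposite strand, which was at 28.4 ± 0.183 and 23.5 ± 0.946 CPM. The falls of these 4 ADAM genes were between 1.27-fold and 1.52-fold, without overlap between the groups, and none passed the test against a change of 1.5-fold.

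Larger falls were found for ADAM19 and ADAM28. ADAM19 (ENSG00000135074), which can shed neuregulins, was at 38.8 and 33.5 CPM in WT and at 3.18 and 4.64 CPM in TMEM9 KD. It fell 9.17-fold (log2 fold change -3.20, SE 0.149, adjusted p = 1.16e-35). Its neighbour CYFIP2, which shares 62 exon bases with it on the opposite strand, went the other way, from 5.68 ± 1.32 to 19 ± 0.568 CPM. ADAM28 (ENSG00000042980), a membrane and secreted ADAM first described in lymphocytes, was at 4.15 and 4.45 CPM in WT and at 1.22 and 0.745 CPM in TMEM9 KD (log2 fold change -2.13, SE 0.338, adjusted p = 5.28e-08), on 62, 80, 20 and 13 counts.

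ADAM12 (ENSG00000148848), a sheddase that is high in tumour stroma and some carcinomas, was at 146.7 and 143.5 CPM in WT and at 143.5 and 146.3 CPM in TMEM9 KD. The groups overlapped and the log2 fold change was -0.002 (SE 0.0646, adjusted p = 0.984). With the sum of ADAM genes at 90.6 ± 1.67 RPKM in WT and 66.4 ± 0.134 RPKM in TMEM9 KD, the share of ADAM12 was 16.2% ± 0.0448 and 22.1% ± 0.257. ADAM8 (5.25 ± 0.424 and 4.27 ± 0.517 CPM; log2 fold change -0.29) and ADAM21 (1.2 ± 0.198 and 1.24 ± 0.195 CPM; 0.06) were not called.

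Of the 8 ADAM genes whose products lack the active site and act in adhesion, 2 were tested. ADAM22 (ENSG00000008277), a neuronal receptor for LGI proteins, was at 1.2 and 2.67 CPM in WT and at 6.47 and 5.73 CPM in TMEM9 KD. The WT libraries differed from each other by more than the knockdown libraries did, with 18 and 48 counts. ADAM22 rose 3.06-fold (log2 fold change 1.61, SE 0.266, adjusted p = 1.41e-07). The log2 fold change was 2.33 without WT replicate 2 and 1.18 without WT replicate 1. ADAM23, another LGI receptor, had 1 and 8 counts in WT and 10 and 12 in TMEM9 KD and was not called (log2 fold change 1.24, SE 0.676, adjusted p = 0.109).

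Of the ADAMTS genes, the 3 that encode procollagen N-propeptidases were at low levels. These enzymes cut the amino-terminal propeptide from fibrillar procollagens, and ADAMTS3 also acts on the lymphatic growth factor VEGFC. ADAMTS2 (ENSG00000087116) was at 4.15 and 2.39 CPM in WT and at 0.0611 and 0.172 CPM in TMEM9 KD. It fell 25.8-fold (log2 fold change -4.69, SE 0.573, adjusted p = 1.24e-11), a value that rests on 62 and 43 counts against 1 and 3. It was -5.57 on the log2 scale without TMEM9_KD replicate 2 and -4.17 without TMEM9_KD replicate 1. ADAMTS3 (ENSG00000156140) was at 7.29 and 7.18 CPM in WT and at 3.36 and 3.61 CPM in TMEM9 KD (log2 fold change -1.05, SE 0.218, adjusted p = 1.92e-05). ADAMTS14 was at 6.56 ± 0.938 and 5.02 ± 0.191 CPM and was not called (log2 fold change -0.38, adjusted p = 0.111).

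Proteoglycanases of the ADAMTS subfamily cleave versican and aggrecan. Of 7 such genes, 5 were tested, of which 2 rose and 1 fell, beside 28.7% higher and 29.0% lower among all genes tested. ADAMTS9 (ENSG00000163638), a versican-cleaving enzyme, was at 56 and 50.3 CPM in WT and at 8.43 and 7.68 CPM in TMEM9 KD. It fell 6.6-fold (log2 fold change -2.72, SE 0.117, adjusted p = 2.8e-38). ADAMTS1 (ENSG00000154734) was at 19.4 and 27.9 CPM in WT and at 42.3 and 43.3 CPM in TMEM9 KD (log2 fold change 0.84, SE 0.106, adjusted p = 3.22e-11), with the WT libraries further apart than the knockdown libraries. ADAMTS20, the closest relative of ADAMTS9, was at 0.669 and 1 CPM in WT and at 2.75 and 2.12 CPM in TMEM9 KD (log2 fold change 1.51, SE 0.407, adjusted p = 0.000888). ADAMTS9 and ADAMTS20 thus moved in opposite directions, at levels of 4.98 ± 0.377 and 0.115 ± 0.0325 RPKM in WT. ADAMTS5 (2.17 ± 0.625 and 3.04 ± 0.155 CPM; log2 fold change 0.51) and ADAMTS15 (17.9 ± 0.299 and 17.5 ± 2.01 CPM; -0.03) were not called.

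ADAMTS12 (ENSG00000151388) and ADAMTS7 (ENSG00000136378) can both cut cartilage oligomeric matrix protein, and both rose. ADAMTS12, with the highest RPKM of the subfamily, was at 77.3 and 72.1 CPM in WT and at 118.8 and 125.5 CPM in TMEM9 KD (log2 fold change 0.71, SE 0.0714, adjusted p = 3.47e-15). Against a change of 1.5-fold its adjusted p was 0.0576. ADAMTS7 went from 8.44 ± 0.0203 to 12 ± 0.337 CPM (log2 fold change 0.50, SE 0.158, adjusted p = 0.00457). ADAMTS7 lies across from MORF4L1, a gene with 8041 to 9530 counts per library on the opposite strand, with 0 shared exon bases.

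ADAMTS6 (ENSG00000049192), which acts on microfibril and adhesion proteins, was at 25.1 and 23.4 CPM in WT and at 72.7 and 72.1 CPM in TMEM9 KD. It rose 2.99-fold (log2 fold change 1.58, SE 0.0903, adjusted p = 2.25e-29), and the libraries of each group lay close together. Its relative ADAMTS10 had at most 3 counts in any library. ADAMTS16 (ENSG00000145536) was at 2.47 and 2.45 CPM in WT and at 6.41 and 7.91 CPM in TMEM9 KD (log2 fold change 1.54, SE 0.236, adjusted p = 2.09e-08). ADAMTS13, the protease of von Willebrand factor, was at 1.59 ± 0.12 and 0.865 ± 0.332 CPM and was not called (log2 fold change -0.87, adjusted p = 0.0842). Summed over the subfamily, ADAMTS genes held 27 and 26.5 RPKM in WT and 35.3 and 36.7 RPKM in TMEM9 KD. ADAMTS6 took 10.6% ± 0.387 of this in WT and 23.5% ± 0.791 in TMEM9 KD, and ADAMTS9 18.6% ± 1.16 and 2.1% ± 0.197.

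Of the 25 members not tested, 7 had no count in any library, namely MMP21, MMP23B, MMP27, ADAM2, ADAM7, ADAM33 and TIMP4. Another 15 had between 1 and 5 counts at most, namely MMP7, MMP8, MMP9, MMP20, MMP26, ADAM18, ADAM20, ADAM29, ADAM30, ADAMTS4, ADAMTS8, ADAMTS10, ADAMTS17, ADAMTS18 and ADAMTS19. MMP7, the epithelial matrilysin, had at most 2 counts. ADAMTS17 had 0 counts in both WT libraries and 4 and 3 in TMEM9 KD, and ADAMTS19 had 0 in WT and 5 and 2 in TMEM9 KD. ADAMTS4, an aggrecanase, had its 5 counts in WT replicate 2. The 3 others had more counts but were not tested. MMP10 reached 9 counts, ADAM11 9 counts and ADAM32 22 counts, the last in TMEM9_KD replicate 1 beside 6 in TMEM9_KD replicate 2.

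Several members are neighbours on a chromosome. Among the members analysed, an order on chromosome 11 is MMP7, MMP20, MMP27, MMP8, MMP10, MMP1, MMP3 and MMP13. MMP12 is also on chromosome 11 but was not analysed, so its place is left out. Of the 8 genes in this order, only MMP1, MMP3 and MMP13 were tested. Their log2 fold changes were -0.77, 0.23 and -3.02, and the other 5 genes were near 0. ADAMTS1 and ADAMTS5 are adjacent members on chromosome 21, with log2 fold changes of 0.84 and 0.51. Chromosome 5 holds 6 members, of which ADAMTS16, ADAMTS12 and ADAMTS6 rose, ADAM19 and ADAMTS2 fell and ADAMTS19 was near 0.

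Genes that activate or restrain the secreted enzymes moved in both directions. Of 15 tested from a list of 20, 10 fell and 4 rose, and the median change was -0.51 on the log2 scale. Of all genes tested, 29.0% fell and 28.7% rose, with a median of 0.01. TFPI2, a protease inhibitor of the matrix, fell from 103.3 ± 1.45 to 29 ± 3.07 CPM (log2 fold change -1.83) and LRP1, the endocytic receptor that clears MMPs and TIMPs, from 275.8 ± 2.02 to 91.7 ± 12.7 CPM (-1.59). LCN2, which binds MMP9, fell from 1.56 ± 0.246 to 0.569 ± 0.318 CPM (-1.45). RECK, a membrane-anchored MMP inhibitor, was lower (-0.61, adjusted p = 0.00281), as was FURIN, the convertase that activates MMP14 (-0.25, adjusted p = 0.000646). PRSS3 (0.62), PCSK6 (0.42) and PLAU (0.28) were among the 4 genes of this list that rose.

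Regulators and partners of ADAMs, mainly ADAM10 and ADAM17, fell in 7 and rose in 3 of 13 tested from a list of 15. Their median log2 fold change was -0.17, and of all genes tested 29.0% were lower and 28.7% higher. The list also holds SH3PXD2A, SH3PXD2B, SH3GL2 and MAD2L2, which are not established regulators of ADAM10 or ADAM17. TSPAN15, a tetraspanin that binds ADAM10 and directs it to N-cadherin, fell from 25.3 ± 1.78 to 0.235 ± 0.073 CPM (log2 fold change -6.69, adjusted p = 9.61e-41). TSPAN5, another ADAM10-binding tetraspanin, had 1 count over the WT libraries and 38 over the TMEM9 KD libraries, a ratio of 37 (95% exact Clopper-Pearson interval 6.25 to 1499, counting error only). RHBDF2, which carries ADAM17 to the cell surface, fell from 57.7 ± 4.36 to 20.6 ± 3.46 CPM (-1.48), while its relative RHBDF1 was not called (41.9 ± 2.65 and 39 ± 0.995 CPM). SH3PXD2A, a scaffold of invadopodia, fell from 76.3 ± 9.31 to 24.7 ± 0.531 CPM (-1.63).

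Membrane proteins that ADAM10 and ADAM17 can shed fell in 13 and rose in 6 of 26 tested from a list of 30 (all genes tested, 29.0% lower and 28.7% higher). The median log2 fold change was -0.25, also with the gene at 0 placed at its bound. TGFA, a ligand of the EGF receptor, fell from 67.9 ± 3.98 to 3.33 ± 0.903 CPM (-4.35), and DLL1, a Notch ligand, from 19 ± 0.498 to 0.265 ± 0.0298 CPM (-6.12). CX3CL1, a membrane-bound chemokine, had 58 counts over WT and 0 over TMEM9 KD, which is at least 19.9-fold lower if the knockdown group as a whole is set to 3 counts. SDC1, a syndecan, fell from 301.5 ± 2.01 to 61.6 ± 1.23 CPM (-2.29). EGF (2.06), ALCAM (2.05) and CDH2, which encodes N-cadherin (0.87), rose. The ligands EREG, HBEGF, AREG and BTC were not called.

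Matrix substrates fell in 11 and rose in 5 of 17 tested from a list of 21 (median log2 fold change -0.79), where 29.0% of all genes tested fell and 28.7% rose. COL3A1, a fibrillar collagen (log2 fold change -4.94), and NID1, a basement membrane linker (-4.86), fell most, followed by BGN (-1.69) and COL4A1 (-1.56). Of the genes of this list that rose, THBS1 rose most (1.09). The collagen gene COL1A1 (0.75) and VCAN, which encodes versican (0.36), also rose. Without WT replicate 1, or without WT replicate 2, 3 genes of this list rose in place of 5. Other zinc proteases of the same superfamily and ADAMTS-like genes went both ways, with 3 of 9 tested higher and 4 lower from a list of 17, of which 16 matched a row (median 0.01), beside 28.7% higher and 29.0% lower among all genes tested. PAPPA2, a protease of IGF-binding proteins, had 2 counts over WT and 42 over TMEM9 KD (ratio 20.4, interval 5.32 to 174.3). ADAMTSL1 rose (log2 fold change 1.83, SE 0.641), on 4 and 4 counts in WT and 12 and 18 in TMEM9 KD. ADAMTSL4, which lacks a protease domain, fell (-1.68). PAPLN also fell (-1.54, SE 0.578), on 24 and 13 counts in WT and 11 and 2 in TMEM9 KD.

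Transcription factors of the AP-1, ETS and RUNX families, which are known to act on MMP promoters, rose in 8 and fell in 8 of 18 tested (median log2 fold change -0.01), and 28.7% of all genes tested rose and 29.0% fell. FOSL1 rose from 61 ± 2.81 to 219.3 ± 12.9 CPM (log2 fold change 1.84) and BATF3 from 2.18 ± 0.147 to 6.82 ± 0.486 CPM (1.64). ELF3 fell from 3.42 ± 0.114 to 0.441 ± 0.105 CPM (-2.93), and FOS from 4 ± 0.391 to 1.54 ± 0.321 CPM (-1.37). The plot of partner genes shows the spread of each list.

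**Figure D4:**
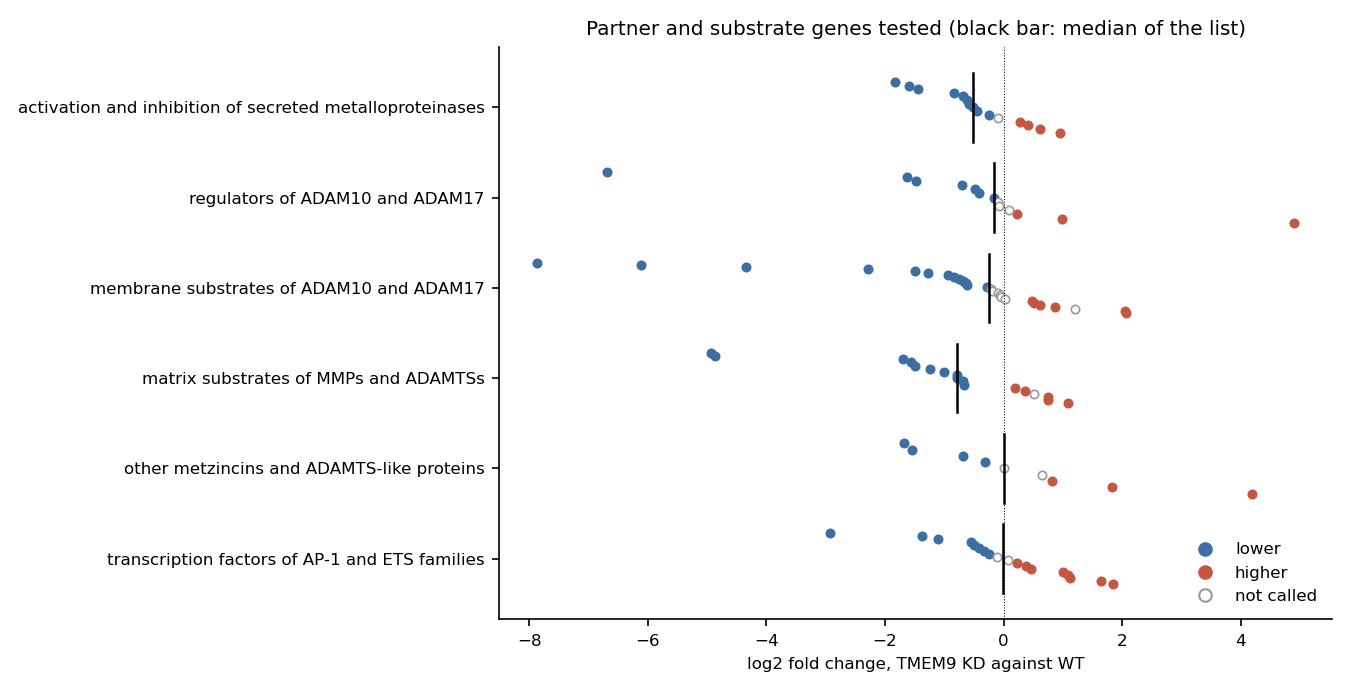
Log2 fold change (horizontal axis, TMEM9 KD against WT) of each gene tested in the 6 lists of partner, substrate, related and transcription factor genes, coloured by call as in the plot by subfamily, with a black bar at each list's median. The leftmost point is CX3CL1, drawn at its fitted value although it had 0 counts in TMEM9 KD, and the matrix list has the lowest median, at -0.79. The list labelled as regulators of ADAM10 and ADAM17 also holds SH3PXD2A, SH3PXD2B and MAD2L2, which are not established regulators of those ADAMs.

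Markers of other cells that make these enzymes were measured in the same libraries. The counts below stand beside 28.7% higher and 29.0% lower among all genes tested. Of 11 fibroblast markers, 10 were tested, 5 rose and 4 fell. Their summed level was 3419 and 3468 CPM in WT and 3383 and 3452 CPM in TMEM9 KD, so that the groups overlapped. Large changes in opposite directions offset each other in this sum. COL3A1 went from 956.7 ± 13.3 to 31.1 ± 4.78 CPM and PDGFRA from 243.9 ± 0.158 to 147.1 ± 7.24 CPM. COL1A1 went from 823.7 ± 11.9 to 1387 ± 122.6 CPM and VIM from 1349.5 ± 9.49 to 1796 ± 71.6 CPM. All 11 had counts. Of 8 basal and myoepithelial markers, 6 fell and 1 rose, and their sum went from 221.0 and 228.3 CPM in WT to 84.3 and 85 CPM in TMEM9 KD, with KRT5 and KRT14 at 0 in TMEM9 KD. Of 10 leukocyte and macrophage markers, 7 had a count, with sums of 11.3 and 13.2 CPM in WT and 6.96 and 6.87 CPM in TMEM9 KD, and LYZ, CD3E and MS4A1 were at 0. The 4 endothelial markers matched summed to at most 1.15 CPM. The luminal and apocrine markers summed to 729.7 and 738.7 CPM in WT and 710.5 and 738.8 CPM in TMEM9 KD. The part of these levels in the changes of the protease and TIMP genes was not tested.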

How the data were processed

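RNA-seq libraries of 2 WT and 2 TMEM9 KD samples were used. The authors deposited raw counts per Ensembl gene, and per the submitters' processing notes the tools were CASAVA and Bowtie 0.12.2 and the builds named are hg19 and mm8, without roles. The sources used here give no counting tool, annotation or strand setting. Every column was mapped by its title. Symbols were matched for 45342 of 48162 rows, and gene types, exon lengths and overlaps came from GENCODE v29, a different build from hg19, so lengths and RPKM are approximate. Symbols without a matched row were not analysed here.

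The counts went into edgeR 4.0.16 (R 4.3.3) and its quasi-likelihood F test, with TMM factors, filterByExpr (minimum count 10, minimum total 15), group as the only term and Benjamini-Hochberg adjustment over 14923 genes. Each SE is the size of the log2 fold change divided by the root of F. The fit was tested on simulated data with a common dispersion and far fewer changed genes than were called here. That test therefore does not show how the fit behaves for these data. Replicates differed by more than sampling noise (chi-square over degrees of freedom 2.04 in WT, 4.82 in TMEM9 KD) and were kept apart.

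Members and lists were chosen with earlier results of these data known. All tested members are named, with full values for up to 8 MMP, 6 ADAM and 6 ADAMTS genes with the largest called changes, all TIMP genes and the 3 highest per length of each subfamily, and from each list up to 4 called genes with the largest change. A result that this rule names is not reported here. EGF, ALCAM, RECK, FURIN, PRSS3, PCSK6, PLAU, RHBDF1, CDH2, THBS1, COL1A1 and VCAN fall outside that rule. So do the cell type markers, the genes that overlap members, and the list genes named as not called. All of these were named after their values were seen. Alternatives were DESeq2 1.42.0, limma 3.58.1 voom, a test against 1.5-fold, 3 other scalings, 2 other filters, the replicate number as a block, and each library left out in turn.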

Additional observations from a re-analysis of the deposited data

How the results depend on the processing

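Under DESeq2, limma voom, DESeq2 size factors, upper-quartile factors and no filter, all 10 counts of members called (overall and by subfamily) stayed within 1.5 times. Against a change of 1.5-fold, 5 members were higher and 10 lower, with 0 MMP genes higher, 3 MMP genes lower and 2 ADAM genes lower, since this test asks for larger changes. With a mean of at least 5 CPM, which tests fewer genes, 5 members were higher and 0 ADAM genes were higher. With library size only, 2 MMP genes were higher. Leaving out each library in turn gave 8 to 9 members higher and 16 to 17 lower, 4 to 5 MMP genes lower and 1 to 2 ADAM genes higher, the second being ADAM32 without TMEM9_KD replicate 2 (log2 fold change 2.27, adjusted p = 0.0136). In these fits with 1 library left out, 1 MMP and 6 ADAMTS genes were higher and 6 ADAM, 3 ADAMTS and 3 TIMP genes lower. The test against 1.5-fold also gave 4 ADAMTS genes higher and 2 TIMP genes lower, and the mean of at least 5 CPM gave 4 ADAMTS genes higher and 5 ADAM, 4 MMP and 2 ADAMTS genes lower. Among the partner lists, the test against 1.5-fold gave 1 higher and 3 lower for activation and inhibition (4 and 10 before). It gave 1 and 3 for the list of ADAM regulators and partners (3 and 7), 3 higher for membrane substrates (6) and 2 higher for matrix substrates (5). For other metzincins it gave 1 lower (4), and for transcription factors 4 and 3 (8 and 8). Of the ADAM regulators and partners, 1 was higher with DESeq2 and 1 with a mean of at least 5 CPM. With that mean, 1 of the other metzincins was higher. Members that turned sign were never called: MMP19 was at 0.04 and ADAMTS15 at 0.04 with library size only, and ADAM12 was at 0.07 with library size only and 0.0001 with upper-quartile factors. Leaving out each library gave -0.25 to 0.17 for MMP19, -0.02 to 0.02 for ADAM12, -0.12 to 0.22 for ADAM21 and -0.16 to 0.09 for ADAMTS15. The cause of these turns was not tested. Same-numbered libraries did not deviate together (correlation 0.000474 across genes), and the replicate block left 8 members higher and 17 lower. Low counts limit MMP24, ADAMTS2, ADAM23 and ADAM32, and among the list genes for example ADAMTSL1 and PAPLN. The 25 untested members can only be called low or near 0, the highest count being 22 for ADAM32 in TMEM9_KD replicate 1.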
